A study of Homo sapiens with 2 samples.

Results

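The genes described here encode intermediate filament proteins: the keratins KRT8, KRT18, KRT19, KRT15 and KRT10, the cytoplasmic filament protein vimentin (VIM), and the nuclear lamins LMNA, LMNB1 and LMNB2. They were taken by symbol, 9 of the 22965 gene IDs listed, and all 9 passed the minimum of a mean of 10 counts over both libraries. RNA-seq counts came from H460, an established line of human large-cell lung cancer cells. One library came from control cells labelled vector and the other from cells overexpressing PKP2, delivered by pSin-puro. Both cultures grew in DMEM with 10% FBS and were at passage 5. The labels do not say whether the cells were a clone or a pool, nor name the control's vector further. The 23513304 counts of the vector library and the 20319137 of the PKP2 library are the depth behind all values. With 1 library per group no difference has a replicate check, no test across samples exists, and every 95% interval covers counting error only. Levels are CPM, read counts scaled to a common library size. Of paired values, the vector library stands first. A ratio is PKP2 over vector, as log2 unless a fold is named.

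Intermediate filaments are rope-like polymers that give cells mechanical strength. Keratins assemble only as heterodimers of a type II chain, such as that of KRT8, with a type I chain, such as those of KRT18, KRT19, KRT15 and KRT10, whereas vimentin can polymerise alone. In epithelia keratin filaments are anchored at desmosomes through plakins, and PKP2 encodes plakophilin 2, a desmosomal plaque protein that helps to tie them there. Lamins form the meshwork under the inner nuclear membrane. KRT8, KRT18 and KRT19 are keratins of simple epithelia, and vimentin is the filament protein of mesenchymal cells and of many carcinoma lines. The series was made to find genes downstream of PKP2, and the counts of PKP2 were 181 and 1330, or 7.63 and 66.0 CPM.

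The 9 proteins share a coiled-coil rod that ends in a conserved stretch, the helix termination motif. The coding sequence around it is shown for the 4 type I keratins, among which ratios lay farthest apart. It shows how far they differ in this conserved stretch, not over whole transcripts. Each line gives 48 coding bases from the principal transcript of GENCODE release 29, 5′ to 3′ on the coding strand, with the 6 codons of the motif in capitals.
KRT18: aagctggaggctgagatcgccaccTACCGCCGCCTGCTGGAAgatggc
KRT19: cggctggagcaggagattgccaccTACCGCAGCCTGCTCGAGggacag
KRT15: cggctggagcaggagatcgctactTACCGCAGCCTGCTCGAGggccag
KRT10: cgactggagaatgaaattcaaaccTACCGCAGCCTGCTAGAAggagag

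Between 4 and 16 of these 48 bases differed in the 6 pairings of the 4 sequences. KRT19 and KRT15 were the closest with 4 mismatches, and KRT18 and KRT19 differed at 14. The protein tail after the motif differs in length: 15 codons follow it in KRT19, which has almost no tail domain, 45 in KRT18 and 130 in KRT10. The reading frames were 400 codons long in KRT19, 430 in KRT18, 483 in KRT8, 466 in VIM and 664 in LMNA.

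KRT8 and KRT18 have many processed pseudogenes, and these are the near copies that could take or give reads. The same stretch in a KRT18 pseudogene is shown with the base that differs from KRT18 in capitals.
KRT18P17: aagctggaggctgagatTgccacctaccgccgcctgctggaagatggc

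KRT18P17 differed from KRT18 at 1 of 48 bases and had 7 and 7 counts. KRT18P1 and KRT18P39, with 1 and 1 counts each, had 0 mismatches and cannot be told from KRT18 in this stretch. Of the 16 KRT8 pseudogenes with a row, KRT8P3 had the most counts (561 and 436), followed by KRT8P12 (119 and 106) and KRT8P45 (62 and 52). Together they held 898 and 732 counts, small beside those of KRT8 itself. The 21 KRT18 pseudogenes with a row held only 50 and 59 counts in all, led by KRT18P5 (5 and 12), KRT18P17 and KRT18P15 (6 and 7). In stretches of 31 bases, over all annotated transcripts, KRT8 shared 24.3% with another listed gene and KRT18 31.4%, part of this with each other, since their exons overlap on opposite strands. KRT19 shared 0.497%, KRT10 1.31%, KRT15 3.06%, VIM 12.9%, mostly with the antisense gene VIM-AS1, LMNA 0.666%, LMNB2 4.16%, and LMNB1 had no such stretch.

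As counted, KRT19 was higher with PKP2 overexpression, while KRT8 and KRT18 were lower. KRT19 (ENSG00000171345, chromosome 17), the smallest keratin and a type I partner of KRT8, had 6501 and 11645 counts, or 274 and 578 CPM. The PKP2 level was thus 2.11 times the vector level (interval 2.05 to 2.18), a ratio of 1.08. KRT8 (ENSG00000170421, chromosome 12), the only type II chain among the 9 genes, had 16537 and 9369 counts, or 697 and 465 CPM. Its level in the PKP2 library was lower, with a ratio of -0.58 (interval -0.62 to -0.55). KRT18 (ENSG00000111057, chromosome 12), the classic partner of KRT8 and its neighbour on the chromosome, had 5954 and 3795 counts, or 251 and 188 CPM. Its ratio was -0.41 (interval -0.47 to -0.35). These intervals lie off 0, but so did those of 78.8% of the 4845 well-counted genes, those averaging 1000 counts or more. Among these 4845 genes 1.51% had a ratio at least as far from 0 as that of KRT19, 7.64% as that of KRT8 and 17.0% as that of KRT18. After a correction for the GC content of transcripts, described below, these shares were 0.557%, 16.0% and 60.5%. In RNA of whole cultures, fewer cells with a transcript and less of it per cell cannot be told apart.

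**Figure D1:**
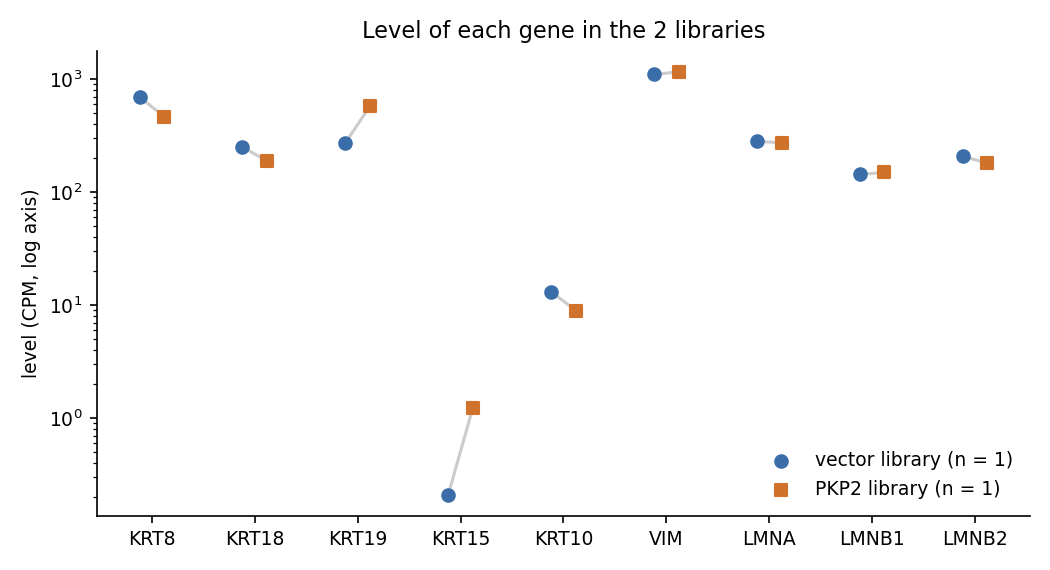
Level of each of the 9 genes in CPM (log axis), with circles for the vector library and squares for the PKP2 library, 1 library each. KRT19 is at 274 and 578 CPM and KRT8 at 697 and 465, while the symbols of VIM and the lamins lie close together.

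Added up as counted, the simple keratin transcripts stood at nearly the same level in both libraries. KRT8, KRT18 and KRT19 summed to 1222 and 1232 CPM, a ratio of 0.01 (interval -0.01 to 0.04). With the GC correction this ratio was 0.34, so the sums were near equal only without it. The make-up of this sum differed. Of the counts of KRT18 and KRT19 together, KRT19 held 52.2% in the vector library (exact Clopper-Pearson interval 51.3 to 53.1) and 75.4% in the PKP2 library (74.7 to 76.1), a share that no scaling of the libraries can alter. KRT19 thus had 1.09 and 3.07 counts per KRT18 count. KRT8 and KRT18 stayed closer to each other, with 2.78 KRT8 counts per KRT18 count (interval 2.70 to 2.86) and 2.47 (2.38 to 2.56).

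Levels per transcript length are the scale on which genes can be compared with each other. With the principal transcripts, KRT8 was near the sum of its type I partners with vector alone and well below it with PKP2. KRT8 stood at 328 CPM per kilobase in the vector library, against 161 for KRT18 and 197 for KRT19, so that the type II level was 0.916 times the summed type I level. In the PKP2 library KRT8 stood at 219 CPM per kilobase, KRT18 at 121 and KRT19 at 416, and the type II level was 0.408 times the type I level. KRT19 passed KRT8 in this order between the libraries, and KRT18 came last of KRT8, KRT18 and KRT19 in both. With the longest annotated transcript in place of the principal one, KRT8 was at 244 and 163 CPM per kilobase and KRT18 at 120 and 90.3. KRT19 was as before, so KRT8 then lay further below its summed type I partners in both libraries.

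**Figure D2:**
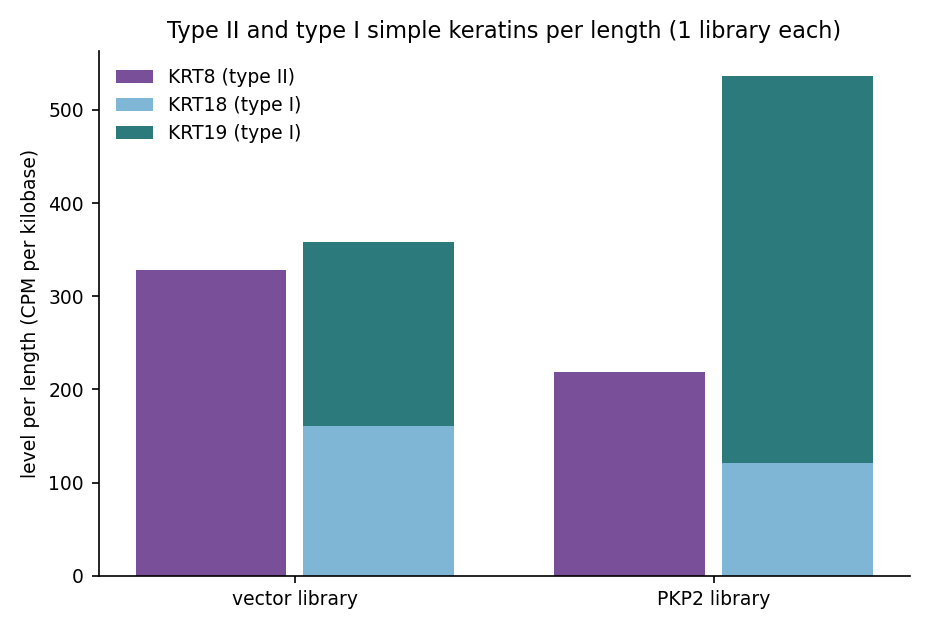
Level per length of the principal transcript (CPM per kilobase, bars from 0) of the type II keratin KRT8 and, stacked, its type I partners KRT18 and KRT19, in the vector and the PKP2 library (1 library each). The bars are 328 against 358 in the vector library and 219 against 537 in the PKP2 library.

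KRT15 and KRT10 are type I keratins of stratified epithelia, KRT15 of the basal layer and KRT10 of the differentiating layers above it. KRT15 (ENSG00000171346, chromosome 17) was close to absent, with 5 and 25 counts, or 0.211 and 1.24 CPM. The fold was 5.89, with a wide interval of 2.22 to 19.7, and the ratio 2.56. With 1 CPM added to both libraries its ratio was 0.89, under the 2-fold line. On the chromosome KRT15 and KRT19 are neighbours among the listed genes, and the next one after KRT19, KRT17, had 0 and 5 counts. On the other side of KRT15, KRTAP4-1 had 3 and 0 counts and KRT23 had 6 and 0. KRT10 (ENSG00000186395, chromosome 17) had 313 and 180 counts, or 13.2 and 8.94 CPM, and a ratio of -0.56 (interval -0.83 to -0.29). Its exons overlap KRT10-AS1 on the opposite strand, which had 192 and 164 counts and a ratio of 0.01. Summed with that gene the ratio was -0.32 (interval -0.52 to -0.12). The use of strand in the counting is not given in the sources used here, so reads of these overlapping genes cannot be told apart.

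Few other keratins were measurable. Of 25 further type II genes, 6 had a row and 3 passed the count minimum, and of 24 further type I genes 2 had a row and none passed; genes without a row were not analysed here. KRT80, a keratin of many epithelia, had 706 and 305 counts and a ratio of -0.97 (interval -1.17 to -0.78). KRT7, a simple-epithelial type II chain that also pairs with KRT19, had 170 and 85 counts and a ratio of -0.76 (interval -1.16 to -0.38). The GC correction described below gave -0.78 for KRT80 and -0.34 for KRT7. KRT81, a hair keratin that passed the minimum only through the vector library, had only 16 and 4 counts, a ratio of -1.76 (-1.37 after GC correction), and 48.6% of its 31-base stretches occur elsewhere in the listed genes. Of the type I genes under the minimum, KRT23 had 6 and 0 counts. KRT78, a type II gene under the minimum, had 0 and 3 counts.

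Of the 9 genes, KRT19 and KRT15 passed 2-fold on the higher side and none on the lower side. Of all 15991 genes past the count minimum, 2.47% did so on the higher side and 4.61% on the lower side. KRT15 passed the count minimum only through the PKP2 library, where it is higher. The median ratio of the 9 genes was -0.05, and that of all 15991 was -0.03. Of all 15991 genes 92.9% lay within 2-fold and 8428 had a ratio below 0, the shares to set beside the counts of gene groups here.

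VIM (ENSG00000026025, chromosome 10) had the highest level per length of the 9 genes in both libraries and hardly differed. It had 26177 and 23401 counts, or 1103 and 1162 CPM, which ranked 60 and 55 among all listed genes. Its ratio was 0.07 (interval 0.05 to 0.10), and 81.5% of the 4845 well-counted genes were at least as far from 0. Per length VIM stood at 517 and 544 CPM per kilobase, against 686 and 756 for KRT8, KRT18 and KRT19 together. H460 cells in both libraries thus carried a mesenchymal filament transcript at a level next to that of their simple keratins. VIM-AS1, which overlaps it on the opposite strand, had 8 and 17 counts, too few to move the VIM value.

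Of the other filament genes outside the keratins 6 had ratios below 0 and 1 above, against 8428 of all 15991 genes below 0, though NEFM and BFSP1 passed to 0.07 and 0.06 after GC correction. Of 11, 9 had a row and 7 passed the minimum, with 2 at least 2-fold lower, none higher, 5 within 2-fold and a median ratio of -0.31, or -0.03 after GC correction. The lower 2-fold line was passed by 4.61% of all genes, or 3.49% once GC content was corrected for. These 2 filament genes passed it either way. NEFH, the heavy neurofilament chain, had 129 and 24 counts and was 4.56-fold lower (ratio -2.19, interval -2.88 to -1.55). PRPH, the peripheral neuron protein peripherin, had 188 and 47 counts and a ratio of -1.76 (interval -2.26 to -1.30), though 48.7% of its 31-base stretches occur in other listed genes. NEFL, the light neurofilament chain, had 6775 and 4422 counts and a ratio of -0.38 (interval -0.43 to -0.32). NES, which encodes nestin of progenitor cells, had 3165 and 2169 counts and a ratio of -0.31 (-0.03 after GC correction). SYNM, which encodes synemin, a partner of vimentin, had 4184 and 4019 counts and a ratio of 0.18, the only one above 0. NEFM (90 and 74 counts) and BFSP1 (192 and 152 counts), a lens filament protein, had ratios of -0.05 and -0.10, with intervals that include 0. NEFM overlaps a gene without a symbol on the opposite strand, which had 75 and 30 counts. That gene holds 38.2% of the 31-base stretches of NEFM, so the NEFM value is uncertain.

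The lamin genes had ratios close to 0 as counted. LMNA (ENSG00000160789, chromosome 1), which gives lamins A and C by alternative splicing, had 6708 and 5506 counts, or 283 and 273 CPM. Its ratio was -0.05 (interval -0.10 to 0.00), and gene counts do not separate the splice forms. LMNB1 (ENSG00000113368, chromosome 5), a B-type lamin that keeps its lipid anchor, had 3407 and 3023 counts, or 144 and 150 CPM, and a ratio of 0.06 (interval -0.01 to 0.14). LMNB2 (ENSG00000176619, chromosome 19), the other B-type lamin, had 4954 and 3623 counts, or 209 and 180 CPM. Its ratio was -0.21 (interval -0.28 to -0.15), the only lamin with an interval off 0. Its exons overlap TIMM13, a mitochondrial import chaperone, on the same strand. TIMM13 had 1116 and 584 counts and a ratio of -0.70 (-0.24 after GC correction), and summed with it LMNB2 had a ratio of -0.29. Per length LMNA stood at 88.6 and 85.7 CPM per kilobase, LMNB1 at 49.9 and 52.2 and LMNB2 at 44.7 and 38.5, so LMNA came first in both libraries. The order of LMNB1 and LMNB2 depended on the transcript: with the longest one LMNB1 stood at 41.3 and 43.2 CPM per kilobase, under LMNB2 in the vector library and above it in the PKP2 library. LMNB2 had 1.45 counts per LMNB1 count in the vector library (interval 1.39 to 1.52) and 1.20 in the PKP2 library (1.14 to 1.26), a log2 change of -0.28 that turned to 0.11 after GC correction.

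The coding sequences of prelamin A, the longer product of LMNA, and of both B-type lamins end in codons for a farnesylation box, where a lipid is attached to the new protein; lamin C lacks it. The last 30 coding bases are shown, stop codon included, because the enzymes considered next act at this end; the 4 codons of the box are in capitals.
LMNA: cagagcccccagaacTGCAGCATCATGtaa
LMNB1: gcatccaatagaagcTGTGCAATTATGtaa
LMNB2: accacctcaagaggcTGCTACGTGATGtga

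The enzymes that act on this end were within 2-fold in 5 of 5 measured genes, as were 92.9% of all genes, with a median ratio of 0.23. ZMPSTE24, the protease that cuts prelamin A, had 4219 and 4923 counts and a ratio of 0.46 (interval 0.40 to 0.52). Its GC-corrected ratio was 0.22. ICMT, which methylates the cysteine after farnesylation, had 1834 and 1826 counts and a ratio of 0.23 (interval 0.14 to 0.32). FNTB, the beta subunit of farnesyltransferase, had 287 and 461 counts and a ratio of 0.92 (interval 0.70 to 1.14), 1.04 after the GC correction described below. FNTB overlaps the read-through gene CHURC1-FNTB on the same strand, which had 104 and 45 counts, and shares 41.0% of its 31-base stretches, so its value is uncertain. FNTA, the alpha subunit, and RCE1, a CAAX protease, had ratios of 0.05 and -0.21 (0.10 for RCE1 after GC correction) with intervals that include 0.

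Proteins that bind the lamina at the nuclear envelope were within 2-fold in 16 of 16 genes, near the 92.9% of all genes, 8 above 0 and 8 below, with a median ratio of 0.07. Farthest from 0 on the lower side were SUN2 at -0.46 (-0.12 after GC correction), LEMD2 at -0.35 (0.04) and BANF1 at -0.28 (-0.12). On the higher side were TOR1AIP1 at 0.36 (0.18 after GC correction), SYNE2 at 0.32 (0.19) and SYNE1 at 0.24 (0.20). SUN2 and the nesprins SYNE1 and SYNE2 link the lamina to the cytoskeleton, LEMD2 and BANF1 hold chromatin to the envelope, and TOR1AIP1 binds lamins and torsin. SUN2 had 399 and 247 counts and overlaps DNAL4 on the same strand and GTPBP1 on the opposite strand.

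Of 12 plakins and other filament linkers, at junctions and elsewhere, 9 were measured, with a median ratio of -0.29 that turned to 0.13 after GC correction. At least 2-fold lower were 2 of them, or 1 after GC correction, and none was higher. Of all genes 4.61% lay past 2-fold on the lower side and 2.47% on the higher, or 3.49% and 2.35% after the correction. Of the cross-linkers of the filament network itself, PLEC, plectin, had 9227 and 6386 counts and a ratio of -0.29 (0.30 GC-corrected). DST, dystonin, had 15185 and 18096 counts and a ratio of 0.49 (0.34 GC-corrected). The epithelial plakins EVPL, DSP and PPL had ratios of -1.26, -1.14 and -0.99, and of -0.74, -1.17 and -0.70 GC-corrected. DSP, which carries keratin filaments to the desmosome that plakophilin belongs to, had only 52 and 20 counts. PKP3, another plakophilin, had 850 and 554 counts and a ratio of -0.38, or 0.21 GC-corrected.

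**Figure D3:**
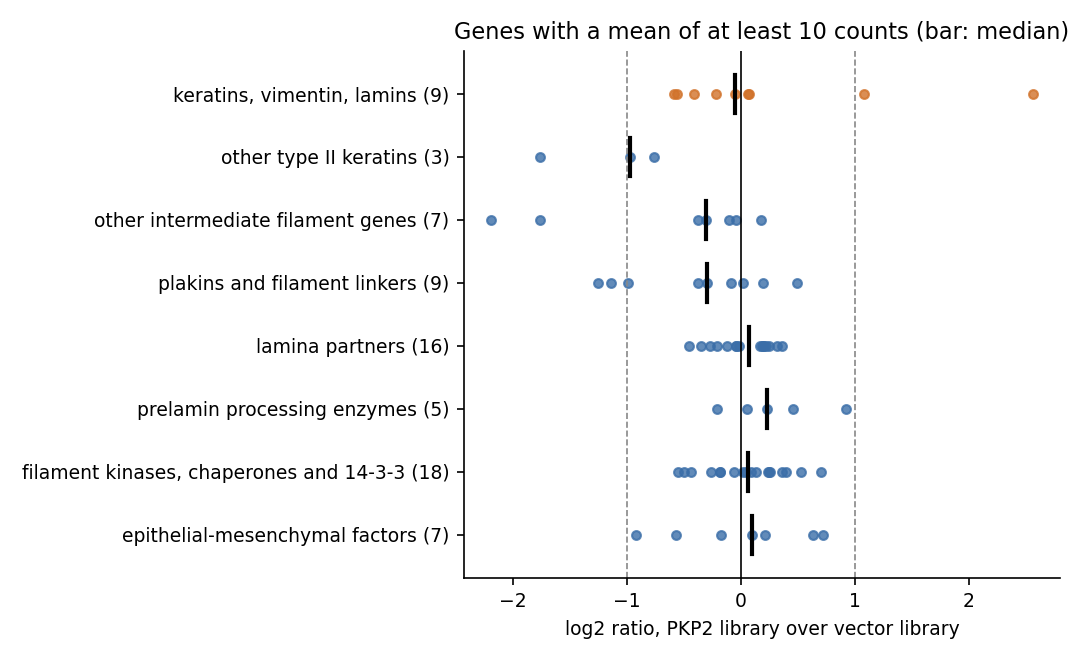
Log2 ratio of each gene past the count minimum (points), by group, with the median as a bar and dashed lines at 2-fold; 1 library per group, numbers of genes in parentheses. KRT19 and KRT15 lie above 1, and the 16 lamina partners lie between -0.46 and 0.36.

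Across genes the ratio went down as the GC content of the transcript went up, and most of the 9 genes are GC-rich. Over the 11610 genes averaging 100 counts or more, Spearman's rho was -0.61, across genes that are not independent replicates. The tenth of genes lowest in GC had a median ratio of 0.25 and the tenth highest -0.47. GC content was 59.1% in KRT8, 60.5% in KRT18 and 61.8% in KRT19, close to each other, and also 61.5% in LMNA and 61.4% in LMNB2, against 47.7% in LMNB1, 52.0% in KRT10 and 54.1% in VIM. A smooth curve of ratio on GC content was therefore subtracted as an alternative.

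After this correction KRT19 stood further apart, and the lower values of KRT8 and KRT18 came closer to 0. KRT19 had a corrected ratio of 1.46, KRT8 of -0.31 and KRT18 of -0.09 (interval -0.15 to -0.03). KRT10 kept a corrected ratio of -0.49 and VIM had 0.20. The ratios of LMNA and LMNB2 took the other sign, from -0.05 to 0.32 and from -0.21 to 0.15, while LMNB1 was at 0.04. The corrected sum of KRT8, KRT18 and KRT19 had a ratio of 0.34 in place of 0.01, so the equal sums hold only without the correction. The change of the KRT19 count per KRT18 count was 1.49 on the log2 scale and 1.54 corrected, and that of KRT8 per KRT18 was -0.17 and -0.22. KRT19 and KRT15 remained the only genes of the 9 past 2-fold, where 2.35% of all genes lay past it on the higher side and 3.49% on the lower after the correction. The corrected median of the 9 genes was 0.15.

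**Figure D4:**
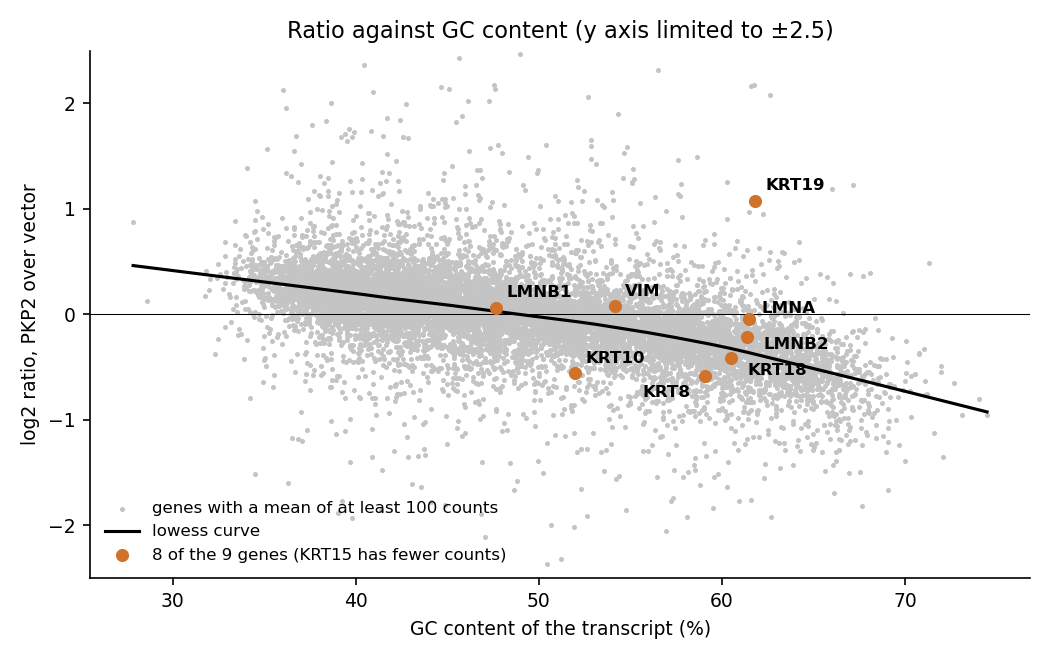
Log2 ratio (PKP2 over vector library) against transcript GC content in percent for genes averaging 100 counts or more (grey), with the smooth curve in black and 8 of the 9 genes in orange; the y axis is limited to ±2.5. KRT19 lies above the curve at 61.8% GC, and KRT8, KRT18, LMNA and LMNB2 lie within 0.32 of it.

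**Figure D5:**
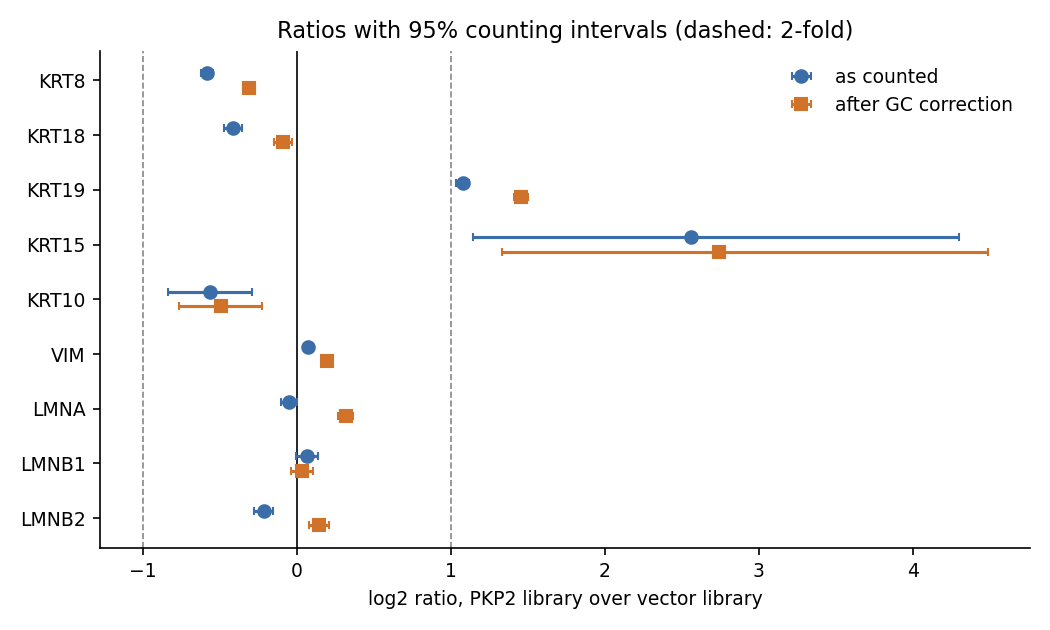
Log2 ratio of each of the 9 genes with its 95% counting interval, as counted (circles) and after the GC correction (squares), with dashed lines at 2-fold. KRT19 and KRT15 lie above 1 either way, and LMNA and LMNB2 pass from below 0 to above it.

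Kinases, chaperones and adaptors that act on filaments were within 2-fold in 18 of 18 genes, again near the 92.9% of all genes, with a median ratio of 0.07. YWHAZ, an adaptor that binds phosphorylated keratin, had 10173 and 14023 counts and a ratio of 0.70, or 0.52 corrected for GC. HSPB1, a small heat-shock protein that binds filaments, had a ratio of -0.55, AURKB, a mitotic kinase that phosphorylates vimentin, -0.50, and SFN, an epithelial adaptor of the same family as YWHAZ, -0.43. ROCK1, a kinase acting on vimentin and on keratins, was at 0.53 and TCHP, a keratin-binding protein, at 0.39. TCHP overlaps GIT2 on the opposite strand, which had 1699 and 1616 counts. GIT2 holds 31.1% of the 31-base stretches of TCHP, so the TCHP value is uncertain. The GC-corrected ratios were -0.06 for HSPB1, -0.31 for AURKB, -0.01 for SFN, 0.34 for ROCK1 and 0.44 for TCHP.

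Of 15 factors and marker genes of the epithelial-mesenchymal axis, 9 had a row and 7 passed the count minimum. The 6 without a row were not analysed here. All 7 measured genes were within 2-fold, where 92.9% of all genes were, with a median ratio of 0.10. ZEB1 (423 and 590 counts) and ZEB2 (1463 and 1921), repressors of epithelial genes, had ratios of 0.72 and 0.63, and SNAI1 (198 and 89), another repressor, -0.92 (interval -1.29 to -0.55). Corrected for GC, the ratios were 0.51 for ZEB1, 0.41 for ZEB2 and -0.67 for SNAI1. EPCAM, an epithelial surface protein, had 28 and 16 counts, the factors TWIST2 188 and 141 and SNAI2 121 and 119, with intervals that include 0. The list also holds FN1, fibronectin, a mesenchymal matrix gene, at 0.10.

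As to cell identity, 7 of 8 epithelial markers had a row. Beyond KRT8, KRT18, KRT19 and CLDN4 (956 and 730 counts) they were lower. KRT7 had 170 and 85 counts, EPCAM 28 and 16, and the splicing factor ESRP1 11 and 6. Lung lineage markers were near 0, NKX2-1 with 10 and 3 counts and TP63 with 3 and 1. Of 7 fibroblast markers 4 had a row, summing to 52.3 and 30.3 CPM, with COL3A1 at 973 and 333 counts, COL1A1 at 132 and 48, PDGFRB at 111 and 208 and LUM at 24 and 22. Endothelial markers summed to 4 and 0 counts (VWF and KDR, each with 2 and 0). Of 5 leukocyte markers 2 had a row, CD68 with 362 and 412 counts and LYZ with 4 and 0. The part of any other cell type in the values above was not tested.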

How the data were processed

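RNA of H460 cells was sequenced from TruSeq libraries, 1 per group, per the labels' protocols. Bowtie 0.12.2, GRCh37 and hg19 are listed in the submitters' processing notes. For the counting program, its annotation and strand setting, the sources used here give nothing. The authors deposited unnormalized reads per Ensembl gene ID, per the file headers, handled as estimated counts because 1 damaged row holds a decimal; all others are whole. In each file 2 rows without a readable gene count were left out.

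Library sizes were totals times TMM factors from edgeR 4.0.16 in R 4.3.3. With 1 library per group edgeR's test was not run. Ratios were those of CPM with no pseudocount, with exact Clopper-Pearson intervals (SciPy 1.17.1). The reads carry no molecular identifiers and may repeat a molecule, which the intervals do not cover. Transcript length, GC content, overlaps and 31-base stretches came from GENCODE release 29 on GRCh38, used by gene ID. The GC correction subtracted a lowess curve (fraction 0.3, genes averaging 100 counts or more; statsmodels 0.14.6), or the median of the 100 genes nearest in GC content and length. Steps were tested on simulated counts.

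The 9 genes and all lists were chosen with earlier results of these data known. All 9 genes are named. Of other keratins and filament genes every measured one is named, of other lists up to 6 measured genes farthest from 0, and of pseudogenes the 3 with the most counts per parent. Markers, overlapping genes and other genes named beyond this were chosen after their values were seen. Sums with genes overlapping on the opposite strand were an alternative chosen after seeing the data. Some coding sequences are not reported here.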

Additional observations from a re-analysis of the deposited data

How the results depend on the processing

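Neither library has a replicate, so no replicate could be left out. KRT19 was at least 2-fold higher under every scaling, pseudocount, filter and GC setting tried, and not at a 3-fold threshold. KRT15 was not counted with 1 or 5 CPM added or with a mean of at least 50 counts, which left 1 of the 9 genes at least 2-fold higher, and 1 passed 3-fold. No gene of the 9 was at least 2-fold lower under the settings tried, and their median stayed between -0.13 and 0.15. Ratios kept 1 sign for 7 genes and changed it for 2, LMNA and LMNB2, under both GC settings. Relative to the 100 nearest genes in GC content and length the ratios were 1.40 for KRT19, -0.35 for KRT8, -0.15 for KRT18, 0.27 for LMNA and 0.18 for LMNB2. Scaling by library totals, DESeq2 1.42.0 size factors or upper quartiles moved ratios by -0.03, 0.01 and 0.02.

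Over all genes, those at least 2-fold higher numbered 395 and lower 737. With 1 CPM added they numbered 180 and 249, with 5 CPM added 106 and 81, without a filter 1858 and 2800, with a mean of at least 50 counts 195 and 304, at 1.5-fold 1098 and 2060, and at 3-fold 114 and 251.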
